A study of Mus musculus with 12 samples.

Results

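The comparison set hippocampal slices in which network activity had been driven up pharmacologically (S) against unstimulated slices (B, basal), as S minus B within each mouse and pooled over both genotypes. It used all 12 arrays of the series, 6 S and 6 B, from 6 mice. Each mouse gave 1 array of either kind, so S and B were compared on slices of the same brain. Genes entered where a transcript cluster, the set of probes that the array holds for a gene, carried 1 gene symbol and had a mean log2 signal of at least 5 over the 12 arrays. Where a gene had several clusters, the brightest one stood for it. This left 15868 of 22180 named genes.

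The S slices of 3 Ptpn11D61Y and 3 control mice received 2.5 mM 4-aminopyridine (4AP), which blocks voltage-gated potassium channels, with 50 µM bicuculline, an antagonist of GABA-A receptors, for 10 min. They then stayed for 3 h in drug-free artificial cerebrospinal fluid before RNA was taken. The B slices of the same mice received the solvent DMSO for 10 min and the same 3 h. All mice were adults of 8 to 11 weeks. Ptpn11D61Y mice were heterozygous for a floxed conditional allele that encodes an overactive form of the phosphatase SHP2, and for Emx1IREScre, a Cre recombinase driven by the Emx1 gene in forebrain excitatory neurons and astrocytes. Cells outside that lineage kept the allele unrecombined. The sample labels give the controls as carriers of the same floxed allele without Emx1IREScre, whereas the study's methods give Emx1IREScre carriers with wild-type Ptpn11. Whichever holds, genotype was the same on both arrays of a mouse, so an effect of genotype shared by S and B dropped out of S minus B. A response that differs between genotypes does not drop out, and the pooled mean averages over it. Total RNA of whole slices was hybridised, so that fewer cells of a type and less RNA per cell cannot be told apart.

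Synaptic activity reaches the nucleus of a neuron through calcium entry and the ERK and CREB pathways. A first set of genes, many of them transcription factors of the Fos, Jun, Egr and Nr4a families, is transcribed within minutes and usually fades within hours. A later set of secreted peptides, channel regulators and synaptic proteins follows. CREB binds the cyclic AMP response element (CRE), found near the start sites of many genes of both sets.

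The slices were checked for markers of forebrain neurons and glia. The signal minimum was met by 18 of 20 excitatory neuron markers, 18 of 20 interneuron markers and 18 of 18 astrocyte markers, against 12 of 24 liver genes and 13 of 27 photoreceptor genes. Brightness of different probes shares no scale, so this shows which markers were measured and not how abundant they were. The arrays of the mice numbered 1 in both genotypes stood apart. Their log2 signals correlated with those of the other arrays at 0.871 to 0.916, whereas the arrays of the mice numbered 2 and 3 correlated among themselves at 0.942 to 0.965. Genes described below that lay at an unadjusted p under 0.05 with all mice and not without the mice numbered 1 are named with that second p. Of the marker lists, choroid plexus genes were far above the other arrays on the B array of Ptpn11D61Y mouse 3.

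No gene passed an adjusted p of 0.05 in the paired fit (limma, Benjamini-Hochberg over all transcript clusters; smallest adjusted p = 0.512). All p-values below are therefore unadjusted and describe genes, not proven responses. At an unadjusted p under 0.05 lay 2060 genes (13%), of which 1433 (9.03%) were higher and 627 (3.95%) lower in S. Differences were small. The study's filter, a change of at least 1.5-fold at an unadjusted p under 0.05, held 140 genes (0.882%), 43 (0.271%) higher and 97 (0.611%) lower in S. When each array was centred on its own median, the same filter held 180 higher and 29 lower genes, and repeated quantile normalisation gave 88 higher and 62 lower, so the balance of the directions depended on the scaling. Over all 41345 transcript clusters, named or not and whatever their signal, 9.69% lay at p under 0.05 (4.68% lower) and 2.59% passed the filter (1.86% lower). The median S minus B over all 15868 genes was 0.03 on the log2 scale as deposited, 0.16 after centring and 0.05 after repeated quantile normalisation.

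Of the genes, 8797 (55.4%) had a mean S minus B above 0. In all 6 mice, 1014 genes (6.39%) were higher and 473 (2.98%) lower in S. Over all clusters 41.1% had a mean above 0, 3.38% were higher in every mouse and 3.33% lower in every mouse. The S and B arrays did not overlap for 34 genes (0.214%), 8 with the S arrays on top and 26 with the S arrays below. Among all clusters this share was 0.254%, so it was no larger among the genes. The whole-array shift differed between mice. The median S minus B over all genes was -0.14, 0.07 and 0.12 in the 3 Ptpn11D61Y mice and 0.10, 0.06 and 0.00 in the 3 control mice.

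Direction followed signal level. Genes with a mean log2 signal between 5 and 6 had a median S minus B of -0.16, and 24.8% of them lay above 0. Between 6 and 7 the median was 0.01 with 52.6% above 0, between 7 and 8 it was 0.10 with 73.1%, between 8 and 9 it was 0.12 with 81.0%, between 9 and 10 it was 0.12 with 81.5%, and from 10 upwards it was 0.13 with 87.3%. The share higher in S at p under 0.05 was 1.36% between 5 and 6, 7.74% between 6 and 7, 14.2% between 7 and 8, 17.6% between 8 and 9 and 13.6% between 9 and 10. The share lower ran the other way, with 5.56%, 5.65%, 2.60%, 1.08% and 0.898% in the same bands. At the dim end the mice numbered 1 lay lowest, with medians of -0.27 in Ptpn11D61Y mouse 1 and -0.61 in control mouse 1, while the other 4 mice lay between -0.09 and 0.04. At the bright end Ptpn11D61Y mouse 3 had the highest median, 0.66. A dim gene that was lower in S and a bright gene that was higher therefore did what most genes of that signal did, and most of the lists below are set beside all genes in the band that holds their median log2 signal.

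**Figure D1:**
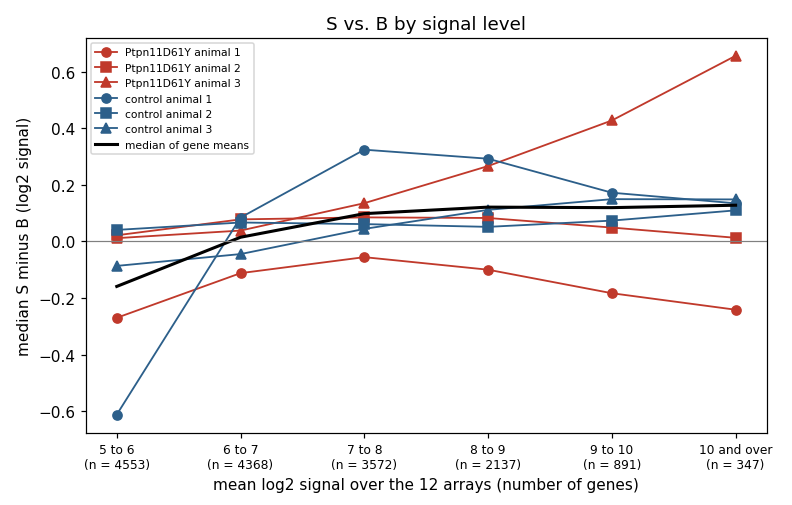
Median S minus B (log2 signal, vertical axis) of genes grouped by their mean log2 signal over the 12 arrays (horizontal axis, with the number of genes), for each Ptpn11D61Y mouse (red) and control mouse (blue); the black line is the median of the 6-mouse gene means. The black line runs at -0.16 in the dimmest group and 0.13 in the brightest, with control mouse 1 at -0.61 on the left and Ptpn11D61Y mouse 3 at 0.66 on the right.

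Among the genes that were higher in S by at least 1.5-fold in the mean and higher in every mouse, 24 carried an established name, and the 12 with the smallest p are described. Rit2, a small GTPase of neurons related to Ras, led them. Its log2 signal was 7.73 to 9.03 on the S arrays (median 8.67) and 6.62 to 8.38 on the B arrays (median 7.81). The groups overlapped because mice differed in level, yet each mouse had its S array on top, by 0.60, 0.91 and 0.94 in the Ptpn11D61Y mice and by 1.46, 0.47 and 0.71 in the controls. The mean difference in Rit2 was 0.85 ± 0.13 (SE, 6 mice), 1.80-fold, with adjusted p = 0.512 in limma. Across all clusters Rit2 had an unadjusted limma p of 9.65e-05, and the exact two-sided sign-flip test over the 6 mice gave p = 0.03125, the smallest that 64 arrangements allow. Every gene that lay on the same side in all 6 mice has this exact p.

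Cdkl4, a kinase of the cyclin-dependent kinase-like family, followed with 0.69 ± 0.11, and every mouse lay between 0.51 and 0.92. Slc25a22, a mitochondrial glutamate carrier, was higher by 0.60 ± 0.10 and Cygb, a globin that binds oxygen, by 0.59 ± 0.11. Zfp36 encodes an RNA-binding protein that promotes decay of cytokine mRNAs and is itself an early response gene. It had 7.98 to 11.20 (median 10.92) on S arrays and 7.75 to 10.73 (median 10.11) on B arrays, a difference of 0.68 ± 0.15. Cnih3, an auxiliary subunit of AMPA receptors, was higher by 0.73 ± 0.16. Egr2, an early growth response transcription factor, was higher by 0.73 ± 0.18, although control mouse 3 differed by only 0.06.

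The others were Asb13 (0.67 ± 0.14), which belongs to a family of ubiquitin ligase adaptors, Rab9b (0.66 ± 0.16), a GTPase of endosomal transport, Gnpda1 (0.61 ± 0.15), an enzyme of hexosamine breakdown, the tetraspanin gene Tspan18 (0.70 ± 0.18) and Mrpl22 (0.64 ± 0.17). In Rab9b and Tspan18 Ptpn11D61Y mouse 1 lay at 0.00 and 0.01. Mrpl22, a protein of the large mitochondrial ribosomal subunit, was the only one of the 12 whose groups did not overlap. Its S arrays read 5.80 to 6.10 and its B arrays 4.69 to 5.64, and control mouse 1, at 1.41, exceeded the other 5 mice, at 0.40 to 0.59. Without the mice numbered 1 all 12 genes kept an unadjusted p under 0.05, with Rit2 at 0.76 and Egr2 at 0.49. Their direction could not change, since they were chosen as higher in every mouse. With no replicate block, that is with the pairing ignored, 2 of the 12 lay at p under 0.05.

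**Figure D2:**
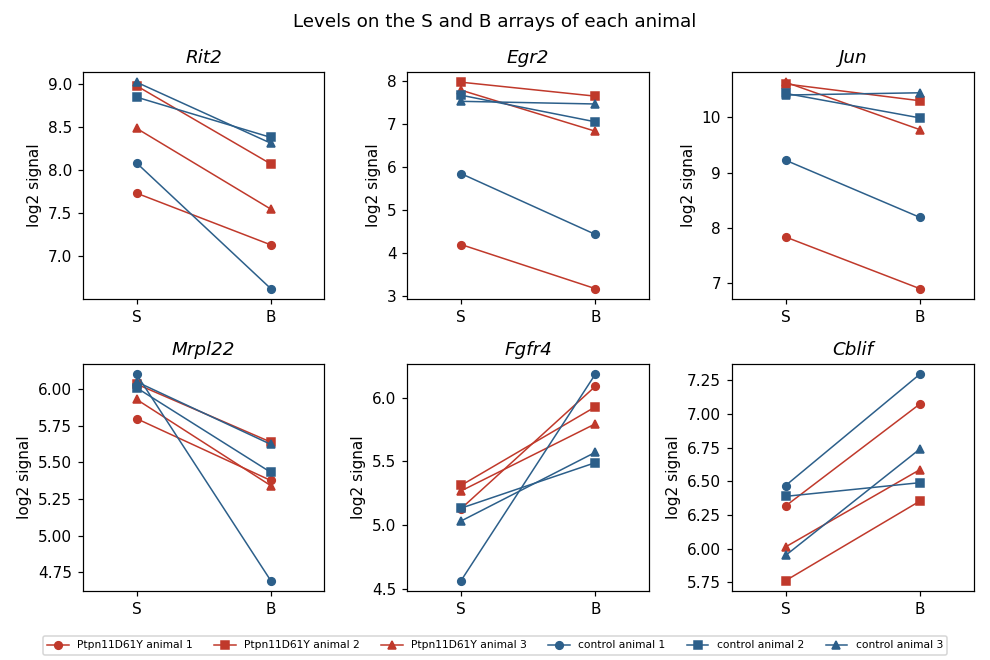
Log2 signal (vertical axes) on the S array and the B array of each mouse, joined by a line, for 3 genes of the activity and leading groups (Rit2, Egr2, Jun), for Mrpl22, and for Fgfr4 and Cblif. Ptpn11D61Y mice are red and controls blue. Mice differ more in level than S and B do for Egr2 and Jun, where both mice numbered 1 lie lowest, and the S and B points do not overlap for Mrpl22 and Fgfr4.

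Lower in S by at least 1.5-fold and in every mouse were 34 genes with established names, and again the 12 with the smallest p are described. All 12 were dim, with mean log2 signals of 5.13 to 6.82. Fgfr4, a receptor tyrosine kinase for fibroblast growth factors, had 4.56 to 5.31 on S arrays (median 5.13) and 5.49 to 6.19 on B arrays (median 5.86). The groups did not overlap, and the difference was -0.77 ± 0.19 (limma, adjusted p = 0.512). Car9, a carbonic anhydrase known as a target of hypoxia signalling, likewise did not overlap, with 4.79 to 5.37 on S arrays and 5.42 to 5.95 on B arrays (-0.60 ± 0.17). Cblif, the gastric intrinsic factor that carries cobalamin, had the smallest p of the lower genes, 0.000841, at -0.61 ± 0.12.

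Most of the rest are known from other tissues. Pde6h, a subunit of the cone phosphodiesterase, differed by -0.70 ± 0.17, the olfactory receptor Olfr1502 by -0.73 ± 0.19, the vomeronasal receptor Vmn1r8 by -0.63 ± 0.18, the placental hormone-like Prl2c1 by -0.78 ± 0.21, the cysteine protease inhibitor Stfa1 by -0.86 ± 0.21 and Lrrc31 by -0.80 ± 0.20. Higd1b, which is expressed in pericytes, differed by -0.63 ± 0.17, the matrix protein gene Sned1 by -0.64 ± 0.18 and the microRNA gene Mir669g by -0.59 ± 0.16. Control mouse 1 had the most negative difference in all of these 12 genes but Mir669g and Sned1. Without the mice numbered 1 all 12 kept an unadjusted p under 0.05, and the difference shrank to -0.51 for Fgfr4, -0.48 for Prl2c1 and -0.41 for Olfr1502. Their direction could not change, since they were chosen as lower in every mouse. With the pairing ignored, 11 of the 12 lay at p under 0.05.

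**Figure D3:**
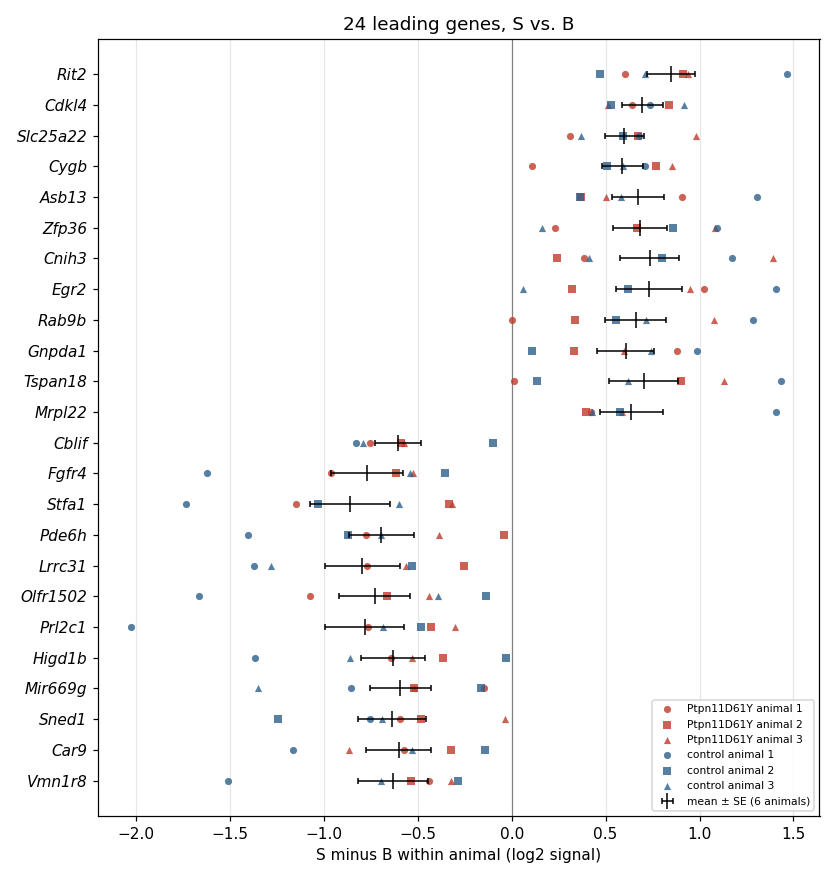
S minus B in each mouse (log2 signal, horizontal axis; Ptpn11D61Y red, control blue) for the 12 leading higher and 12 leading lower genes, with black bars for the mean ± SE over 6 mice. Rit2, at the top, averages 0.85 and every point of the upper 12 genes lies at or right of 0; in the lower 12 genes control mouse 1 often lies farthest left.

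Early activity transcription factors stood as a group above 0. All 25 measured genes of a list of 26 had a mean S minus B above 0, and 9 of them (36.0%) were higher at an unadjusted p under 0.05. Of all genes 55.4% lay above 0 and 9.03% were higher, but of genes between log2 signals of 8 and 9, where the list's median of 8.24 lies, 81.0% lay above 0 and 17.6% were higher. Their median was 0.21, and without the mice numbered 1 it was 0.28, with 23 of 25 above 0 and 11 at p under 0.05. After centring it was 0.35, against 0.16 for all genes. Repeated quantile normalisation gave 0.15, with 23 of 25 above 0 and 8 at p under 0.05. Without Ptpn11D61Y mouse 3 the median was 0.17, with 24 of 25 above 0 and 7 at p under 0.05. Without control mouse 1 it was 0.19, with 21 of 25 above 0 and 10 at p under 0.05. With the pairing ignored, 1 of the 25 lay at p under 0.05. On the deposited scale and with all mice, genes of the band between 8 and 9 had a median of 0.12. Ptpn11D61Y mouse 1 was the exception, with a list median of -0.14, against 0.14 to 0.42 in the other 5 mice.

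Egr2 and Jun passed the 1.5-fold filter. Egr2 is needed for myelination in peripheral nerve and is induced by activity in forebrain neurons. It had 4.20 to 7.96 (median 7.59) on S arrays and 3.18 to 7.64 (median 6.93) on B arrays, with both mice numbered 1 far below the others on either array. Jun, a subunit of the AP-1 transcription factor, had 7.84 to 10.63 (median 10.42) on S arrays and 6.91 to 10.44 (median 9.88) on B arrays. Its difference was 0.59 ± 0.15 (limma, adjusted p = 0.512), above 0 in 5 of 6 mice and -0.04 in control mouse 3. Both groups of arrays overlapped widely in these genes, and the difference showed only within mice.

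The other 7 were smaller. Fosb and Fosl2, Fos family partners of Jun, differed by 0.47 ± 0.16 and 0.29 ± 0.10, and Jund by 0.21 ± 0.09. Nr4a2, an orphan nuclear receptor, had 7.97 to 9.95 (median 9.80) on S arrays and 7.66 to 9.87 (median 9.13) on B arrays and was higher in all 6 mice, by 0.41 ± 0.12. Ier2 differed by 0.46 ± 0.16, the zinc finger factor Klf4 by 0.37 ± 0.13 and the stress-responsive Atf3 by 0.36 ± 0.12. Egr1 (0.34 ± 0.17), Npas4 (0.33 ± 0.23) and Fos (0.13 ± 0.22) did not reach p under 0.05. Fos ranged over the mice on both sides of 0.

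**Figure D4:**
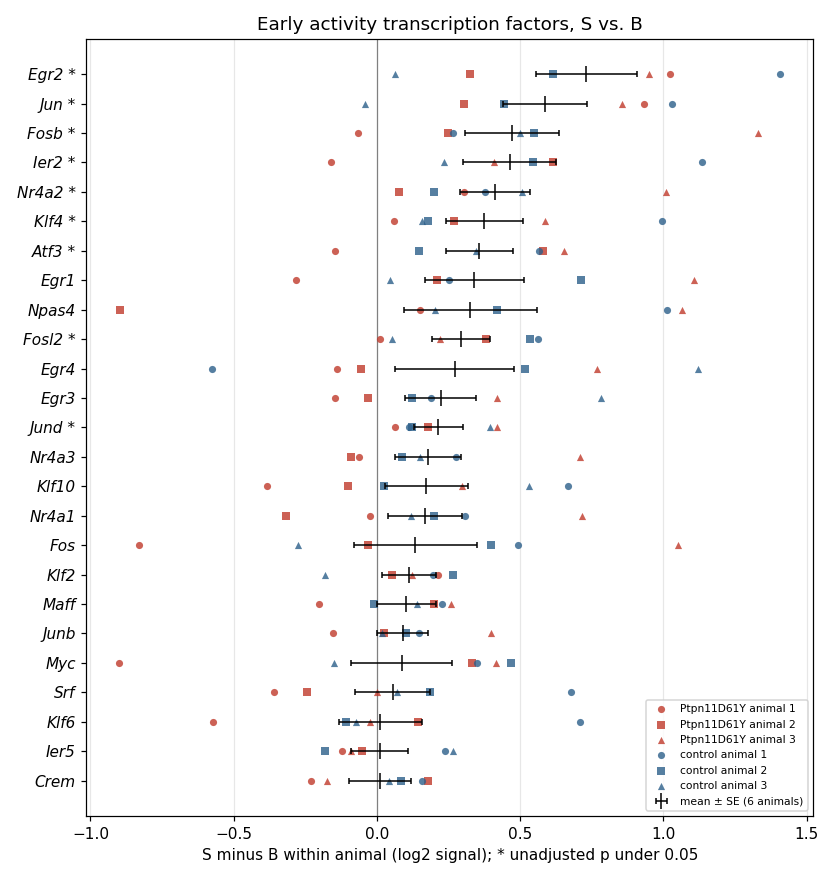
S minus B in each mouse (log2 signal, horizontal axis; Ptpn11D61Y red, control blue) for the 25 measured early activity transcription factors, with black bars for the mean ± SE over 6 mice; asterisks mark an unadjusted p under 0.05. All 25 means lie right of 0, Egr2 highest at 0.73 and Crem lowest at 0.01.

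Early activity effectors, which encode the signalling, synaptic and secreted products of the first wave, had 12 of 21 above 0, 3 (14.3%) higher and none lower at p under 0.05, and a median of 0.06 at a median log2 signal of 8.60. Of all genes of that band 81.0% lay above 0 and 17.6% were higher. The 3 were Ccn1, a matricellular protein (0.41 ± 0.15), the pseudokinase Trib1 (0.34 ± 0.11) and Arf4, a GTPase of the secretory pathway (0.27 ± 0.09). Trib1 had a p of 0.0508 without the mice numbered 1, and its difference was -0.0303 under the averages of the methods' ANOVA. Arc, which drives endocytosis of AMPA receptors and is a standard readout of activity, had 8.78 to 10.90 (median 10.39) on S arrays and 8.76 to 11.10 (median 10.34) on B arrays. It was higher in 3 mice and lower in 3, with a mean of -0.09 ± 0.13 (limma, adjusted p = 0.764).

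Of the late activity genes, 20 of 29 lay above 0, 6 (20.7%) were higher at p under 0.05 and none lower, and the median was 0.14 at a median log2 signal of 8.16, beside 81.0% above 0, 17.6% higher and 0.12 for all genes of that band. Without Ptpn11D61Y mouse 3 the list median was 0.05, with 19 of 29 above 0 and 4 higher at p under 0.05. Rgs4, which shortens signalling through G proteins, had 7.52 to 8.83 (median 8.48) on S arrays and 7.24 to 8.48 (median 8.06) on B arrays. It was higher in every mouse, by 0.42 ± 0.09 (limma, adjusted p = 0.512), with control mouse 1 at 0.76 and the other 5 at 0.29 to 0.44. Pcsk1, the protease that cuts proneuropeptides, was higher by 0.40 ± 0.14, the vesicle protein gene Syt4 by 0.32 ± 0.10, and Rheb, an activator of the mTOR kinase, by 0.27 ± 0.11. The tachykinin precursors Tac1 and Tac2 were higher by 0.41 ± 0.16 and 0.38 ± 0.15, but without the mice numbered 1 their p no longer lay under 0.05 (0.112 and 0.211).

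Bdnf, the neurotrophin most closely tied to activity, had 5.72 to 6.37 (median 6.17) on S arrays and 5.70 to 6.22 (median 6.05) on B arrays, a difference of 0.17 ± 0.16 (limma, adjusted p = 0.652). All 5 measured neurotrophin and receptor genes had means above 0, none at p under 0.05, with a median of 0.09. Without Ptpn11D61Y mouse 3, 3 of the 5 lay above 0 and the median was 0.02.

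Promoter sequence is shown for 4 of these activity genes, since CREB sites near their starts are the best known link to activity. RefSeq windows on build GRCm38.p6 run from 250 bases before to 50 after a gene's start. The core CRE motif TGACG was searched on both strands (as TGACG or CGTCA), the full palindrome TGACGTCA, which holds the core on either strand, and the AP-1 motif as TGACTCA or TGAGTCA. A window existed for 15 of the 18 activity genes with p under 0.05, and 11 of the 15 held a core motif in at least 1 window, while 1 held the full CRE and 0 the AP-1 motif. Counted per gene in the same way, 31.4% of the 12376 genes of the comparison with a window held a core motif in at least 1 window, 3.1% the full CRE and 4.93% the AP-1 motif. Of all 32851 windows, 20.8% held a core motif, 1.79% the full CRE and 5.2% the AP-1 motif. Activity genes that did not reach p under 0.05 were not counted, so a tie between motif and response was not tested. The 4 genes shown are not typical of the 15. Each held at least 2 core motifs in a window, as only Tac1 did among the rest, and for Egr2 a window with the most core motifs is shown. Capitals mark the matches in the windows of Egr2 (chr10:67537619-67537918, plus strand, 1 of 5 windows of the gene, 2 core motifs), Nr4a2 (chr2:57123954-57124253, minus strand, 4 core motifs), Pcsk1 (chr13:75089607-75089906, plus strand, 3 core motifs of which the full CRE accounts for 2) and Rgs4 (chr1:169747593-169747892, minus strand, 2 core motifs):
Egr2: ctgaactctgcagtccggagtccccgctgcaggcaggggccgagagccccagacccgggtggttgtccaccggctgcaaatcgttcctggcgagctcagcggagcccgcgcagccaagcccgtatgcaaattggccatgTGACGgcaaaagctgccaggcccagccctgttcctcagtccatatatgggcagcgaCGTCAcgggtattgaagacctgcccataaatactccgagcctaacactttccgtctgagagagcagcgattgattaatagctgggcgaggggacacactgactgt
Nr4a2: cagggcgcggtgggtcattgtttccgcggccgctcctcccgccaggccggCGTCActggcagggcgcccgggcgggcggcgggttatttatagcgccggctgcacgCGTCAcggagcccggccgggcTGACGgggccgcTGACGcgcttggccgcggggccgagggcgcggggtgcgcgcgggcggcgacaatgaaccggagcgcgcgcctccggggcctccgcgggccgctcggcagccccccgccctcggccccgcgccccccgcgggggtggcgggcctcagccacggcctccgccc
Pcsk1: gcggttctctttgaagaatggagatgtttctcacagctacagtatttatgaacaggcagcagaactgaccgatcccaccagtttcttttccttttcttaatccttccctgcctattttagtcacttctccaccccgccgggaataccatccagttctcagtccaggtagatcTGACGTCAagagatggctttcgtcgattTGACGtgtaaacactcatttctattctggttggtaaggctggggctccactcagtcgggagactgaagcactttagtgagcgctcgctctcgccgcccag
Rgs4: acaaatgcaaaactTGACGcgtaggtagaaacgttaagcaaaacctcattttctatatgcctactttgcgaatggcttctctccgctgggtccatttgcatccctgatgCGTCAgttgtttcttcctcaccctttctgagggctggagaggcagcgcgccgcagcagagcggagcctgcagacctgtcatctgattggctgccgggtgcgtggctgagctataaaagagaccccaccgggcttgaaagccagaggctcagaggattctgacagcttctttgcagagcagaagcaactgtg

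The mean differences of these 4 genes were 0.73, 0.41, 0.40 and 0.42. Jun, Tac2, Fosl2 and Jund, with means of 0.59, 0.38, 0.29 and 0.21, held no match in their windows.

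Genes that restrain or report ERK signalling (Sprouty, Spred, Dusp and Etv families) had 15 of 18 above 0 (83.3%), 4 (22.2%) higher and none lower at p under 0.05, and a median of 0.11 at a median log2 signal of 8.20. These shares were near those of all genes of that band, 81.0% above 0 and 17.6% higher, with a median of 0.12. Etv1, an ETS transcription factor regulated by this pathway, passed the 1.5-fold filter with 8.11 to 9.75 (median 9.41) on S arrays and 7.62 to 9.80 (median 8.43) on B arrays. Its difference was 0.61 ± 0.16, and only control mouse 3 lay below 0, at -0.05. Its relative Etv5 was higher in all 6 mice by 0.44 ± 0.17, of which control mouse 1 gave 1.44. Dusp7, a phosphatase that inactivates ERK, differed by 0.46 ± 0.17 and Spry3 by 0.37 ± 0.13. In the 4 other mice alone Dusp7 differed by 0.17 with a p of 0.252.

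Receptors that carry fast transmission were described with the potassium channels that 4AP blocks and the GABA-A receptors that bicuculline blocks. Of 12 GABA-A subunit genes 10 lay above 0, 4 (33.3%) higher at p under 0.05 and none lower, with a median of 0.22 at a median log2 signal of 8.06, beside 81.0% above 0, 17.6% higher and a median of 0.12 for all genes of that band. Gabra3 had 7.30 to 8.49 (median 8.21) on S arrays and 7.07 to 8.32 (median 7.26) on B arrays, higher in every mouse by 0.55 ± 0.14. Gabrd, the delta subunit of receptors outside the synapse, did not overlap, with S arrays at 7.56 to 7.79 and B arrays at 7.18 to 7.53 (0.30 ± 0.09). Gabrb2 (0.35 ± 0.12) and Gabra2 (0.29 ± 0.13) followed. Without Ptpn11D61Y mouse 3 the GABA-A list still had 10 of 12 above 0, with 2 higher at p under 0.05 and a median of 0.17. Among Kv1 and Kv3 channel genes 9 of 14 lay above 0, 3 higher and 2 lower at p under 0.05, with a median of 0.10 at a median log2 signal of 7.54, where all genes had the same median. Kcna2 was higher in every mouse by 0.33 ± 0.09 and its auxiliary subunit gene Kcnab3 by 0.41 ± 0.17, while the dim Kcna5 (-0.62 ± 0.21) and Kcna10 (-0.50 ± 0.20) were lower. With the mice numbered 1 left out, the p was 0.133 for Kcnab3 and 0.257 for Kcna10, which then differed by -0.24.

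AMPA receptor subunits and auxiliary proteins had 14 of 16 above 0, 4 (25.0%) higher and none lower at p under 0.05, and a median of 0.11 at a median log2 signal of 9.54. All genes of that band had 81.5% above 0, 13.6% higher and a median of 0.12. All 4 encode auxiliary proteins. Beside Cnih3 these were Shisa9 (0.49 ± 0.11, higher in all 6 mice), Cacng2, which encodes stargazin (0.42 ± 0.12), and Cacng3 (0.30 ± 0.11), whose p was 0.099 without the mice numbered 1. The AMPA receptor list depended on Ptpn11D61Y mouse 3. Without that mouse 8 of the 16 genes lay above 0, 3 were higher at p under 0.05 and the median was 0.007. Of 6 NMDA receptor genes Grin3a alone was higher at p under 0.05, by 0.58 ± 0.20. Genes of synaptic vesicle release had 22 of 25 above 0, 7 (28.0%) higher and none lower at p under 0.05, and a median of 0.22 at a median log2 signal of 9.76, beside the same shares of that band. Without Ptpn11D61Y mouse 3 the vesicle list had 20 of 25 above 0, 2 higher at p under 0.05 and a median of 0.14. Vamp1, a SNARE protein of the vesicle, was higher in all 6 mice by 0.37 ± 0.09. Syn1, which tethers vesicles, read 9.33 to 11.70 (median 11.55) on S arrays and 9.31 to 11.37 (median 10.81) on B arrays, with Ptpn11D61Y mouse 3 at 1.10 and the other 5 mice at 0.02 to 0.39. Sv2a (0.37 ± 0.15) and Cplx1 (0.30 ± 0.12) were higher too.

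Markers of neurons were counted beside these lists. Excitatory neuron markers had 14 of 18 (77.8%) above 0 and 3 (16.7%) higher at p under 0.05, with a median of 0.29 at a median log2 signal of 8.05. Of all genes of that band 81.0% lay above 0 and 17.6% were higher, so the counts did not exceed the band's, while the median was above the 0.12 of the band. That median was uneven over the mice, with -0.04, -0.03 and 0.54 in the Ptpn11D61Y mice and 0.16, -0.18 and 0.85 in the controls. Without Ptpn11D61Y mouse 3 it was 0.15. For excitatory markers the summed linear signal was 7707 to 16952 (median 14695) on S arrays and 7523 to 15492 (median 11895) on B arrays. Interneuron markers had 15 of 18 above 0 with a median of 0.21 at a median log2 signal of 7.46, where 73.1% of all genes lay above 0, and sums of 4584 to 11349 (median 9871) on S arrays and 3948 to 11251 (median 6621) on B arrays. The ranges overlapped, and no marker of either list fell to the signal floor of 1. Calb1, a calcium buffer of dentate granule cells, differed by 0.62 ± 0.16, Tbr1 by 0.49 ± 0.14 and the neuropeptide Grp by 0.72 ± 0.26. Among interneuron genes Calb2 was higher in all 6 mice by 0.78 ± 0.26, with Ptpn11D61Y mouse 2 at 2.28, and Kit (0.42 ± 0.16), Vip (0.33 ± 0.12) and Gad1 (0.33 ± 0.14) followed. With the mice numbered 1 left out, the p was 0.075 for Grp and 0.141 for both Kit and Vip. The part of neuronal content in the values of the receptor, vesicle and activity lists was not tested.

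Glial lists sat near 0. Medians were 0.06 for astrocyte markers (13 of 18 above 0), -0.01 for myelin genes (7 of 15), -0.05 for oligodendrocyte precursor markers (4 of 14) and 0.02 for microglia markers (11 of 18). In the same order, all genes of the bands of their median signals had medians of 0.12, 0.12, 0.10 and 0.01. The shares above 0 there were 81.5%, 81.0%, 73.1% and 52.6%. The astrocyte, myelin and precursor lists thus lay below their bands, and the microglia list did not. The myelin list held the neuropeptide gene Trh where Trf was meant. In each glial list, 1 gene lay at p under 0.05. These were Vim, an intermediate filament of astrocytes (-0.24 ± 0.10, lower in all 6 mice), Opalin, a protein of mature oligodendrocytes (0.31 ± 0.11), Bcas1, a marker of newly formed oligodendrocytes (-0.36 ± 0.13), and Selplg, a surface protein of microglia (0.39 ± 0.12). Leaving out the mice numbered 1 gave a p of 0.0549 for Vim and of 0.151 for Bcas1, which then differed by -0.21.

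**Figure D5:**
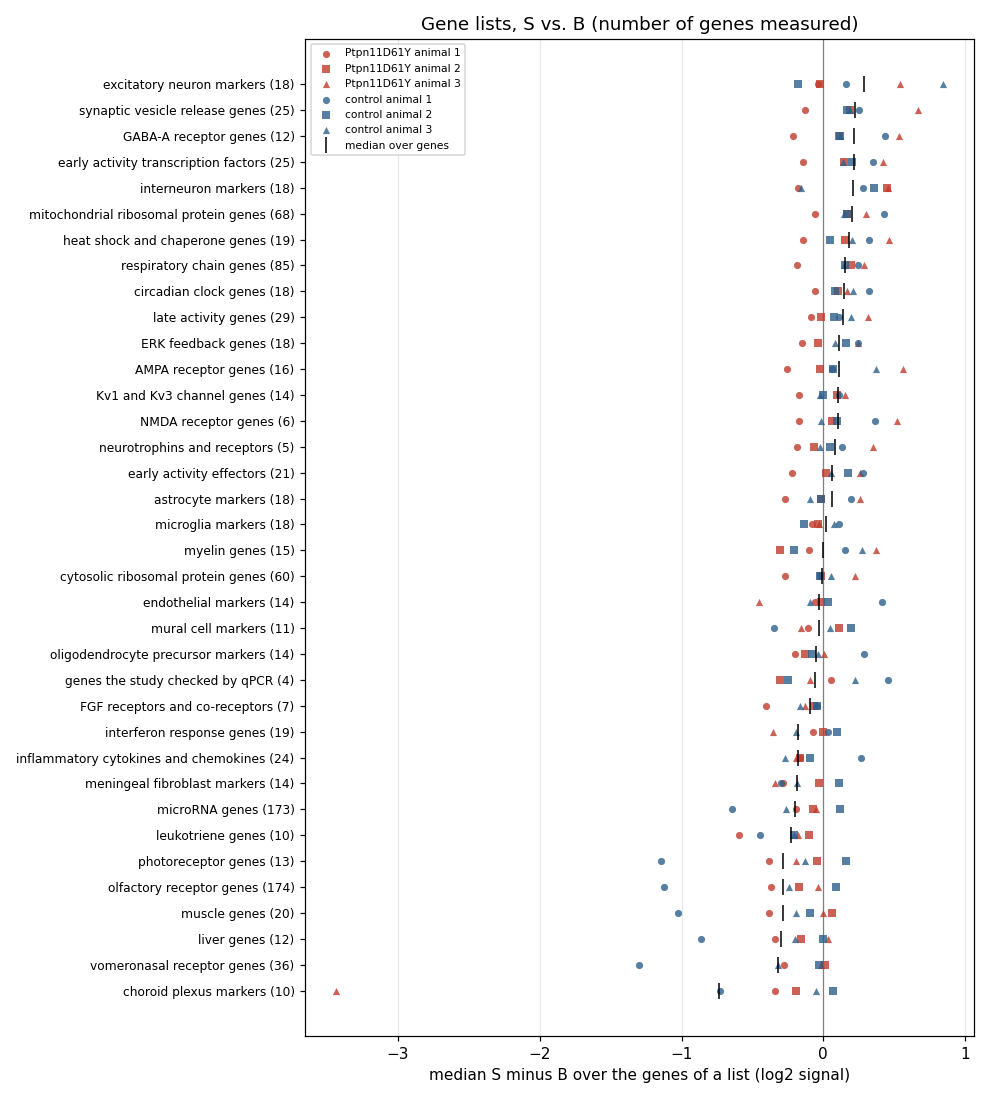
Median S minus B over the measured genes of each list (log2 signal, horizontal axis; number of genes in brackets): black ticks are medians of the gene means, red points Ptpn11D61Y mice and blue points control mice. Lists run from excitatory neuron markers at 0.29 to choroid plexus markers at -0.73, and Ptpn11D61Y mouse 1 lies left of the other mice in many upper lists, control mouse 1 in the lower ones.

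Mitochondrial ribosomal protein genes had 60 of 68 above 0, 20 (29.4%) higher at p under 0.05 and none lower, and 17 higher in every mouse, against 9.03% and 6.39% of all genes. The median was 0.20 at a median log2 signal of 6.76, a band in which all genes had a median of 0.01, 52.6% above 0 and 7.74% higher. Mrpl51 (0.41 ± 0.10), Mrpl49 (0.39 ± 0.10) and Mrpl38 (0.38 ± 0.10) were higher in all 6 mice, as was Mrpl22. The list median was -0.06 in Ptpn11D61Y mouse 1 and between 0.14 and 0.43 in the other 5, and it was 0.20 without the mice numbered 1, 0.33 after centring and 0.25 after repeated quantile normalisation. Without Ptpn11D61Y mouse 3 the median was 0.20, but 11 genes were higher at p under 0.05.

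Genes of the respiratory chain and ATP synthase had 71 of 85 (83.5%) above 0, 18 (21.2%) higher and 1 lower at p under 0.05, and a median of 0.16 at a median log2 signal of 8.30. All genes of that band were near this, with 81.0% above 0, 17.6% higher and a median of 0.12. The ATP synthase subunits Atp5d and Atp5h were higher by 0.33 ± 0.09 and 0.30 ± 0.10, Uqcrc1 of complex III by 0.32 ± 0.10 and Ndufs8 of complex I by 0.35 ± 0.12. Cytosolic ribosomal protein genes had 28 of 60 above 0, 2 higher and 1 lower at p under 0.05, and a median of -0.01 at a median log2 signal of 8.65. They lay below all genes of that band, with 81.0% above 0 and a median of 0.12. With the mice numbered 1 left out, 47 of the 60 lay above 0 with a median of 0.06, and after centring 51 of 60 with a median of 0.12, against 0.16 for all genes, while repeated quantile normalisation left 21 of 60 above 0. Rps7 (0.26 ± 0.09) and Rpl5 (0.50 ± 0.21) were the higher ones and Rpl22l1 (-0.33 ± 0.13) the lower one, with a p of 0.155 for Rpl22l1 without the mice numbered 1.

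Heat shock and chaperone genes had 18 of 19 above 0, 3 (15.8%) higher at p under 0.05 and a median of 0.18 at a median log2 signal of 8.08, beside 81.0%, 17.6% and 0.12 for all genes of that band. Hspa8, the constitutive heat shock protein of the cytosol, read 11.46 to 12.03 (median 11.83) on S arrays and 10.98 to 11.90 (median 11.39) on B arrays, higher in all 6 mice by 0.34 ± 0.13. The inducible Hspa1b differed by 0.64 ± 0.22, from -0.03 in Ptpn11D61Y mouse 1 to 1.68 in control mouse 3, and Chordc1, a cochaperone, by 0.28 ± 0.09. Circadian clock genes had 16 of 18 above 0, 3 (16.7%) higher at p under 0.05 and a median of 0.14 at a median log2 signal of 8.17, near the values of the same band. The 3 were Npas2 (0.36 ± 0.15), Tef (0.24 ± 0.10) and Hlf (0.19 ± 0.08). Npas2, without the mice numbered 1, differed by 0.13 with a p of 0.351, and the p of Hspa8 was 0.132.

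Inflammatory cytokines and chemokines lay mostly below 0. Of 24 measured genes 16 lay below 0, 5 (20.8%) lower and none higher at p under 0.05, against 3.95% of all genes and 2.60% of those of its signal band lower, and the median was -0.18 at a median log2 signal of 7.32, where all genes lay at 0.10. Tnf read 5.62 to 9.29 (median 8.71) on S arrays and 5.75 to 9.82 (median 9.50) on B arrays. It was lower in 5 of 6 mice, with a mean of -0.47 ± 0.14 (limma, adjusted p = 0.512), and without the mice numbered 1 the difference was -0.71. Il1a differed by -0.41 ± 0.14, with control mouse 1 at 0.41 and the other 5 between -0.69 and -0.45. Il1b differed by -0.72 ± 0.26, with Ptpn11D61Y mouse 1 at -2.28, and by -0.52 without the mice numbered 1. Ccl4, a chemokine of activated microglia, was lower in all 6 mice by -0.38 ± 0.12. Without the mice numbered 1 the list had 5 of 24 genes above 0 and 8 lower at p under 0.05. After centring none was lower at p under 0.05 and the median was -0.05, against 0.16 for all genes.

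Interferon response genes had 8 of 19 above 0 and 4 (21.1%) lower and none higher at p under 0.05, against 3.95% of all genes and 5.65% of those of its signal band lower. The 4 were Ifit1 (-0.43 ± 0.15), Irf7 (-0.56 ± 0.22), Ddx58, which encodes the RNA sensor RIG-I (-0.36 ± 0.14), and Oasl1 (-0.37 ± 0.16). Irf7, without the mice numbered 1, differed by -0.23 with a p of 0.145, and the p of Ddx58 was 0.101. The median was -0.18 and after centring -0.04, and without Ptpn11D61Y mouse 3 only 1 gene was lower at p under 0.05. Of 10 leukotriene genes 1 lay above 0 and 2 were lower at p under 0.05. In the band of their median log2 signal of 5.78, 24.8% of all genes lay above 0 and 5.56% were lower. The receptor for the chemoattractant leukotriene, Ltb4r1, differed by -0.61 ± 0.19, and Cyp4f18, which degrades that lipid in mouse neutrophils, by -0.71 ± 0.26. Both were dim, and without the mice numbered 1 their p was 0.0542 and 0.102.

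Vascular lists were mixed. Endothelial markers had 7 of 14 above 0 and a median of -0.03. The drug transporter of the blood-brain barrier, Abcb1a, was lower in all 6 mice by -0.37 ± 0.10 and the tight junction gene Cldn5 in 5 mice by -0.44 ± 0.14, whereas the lipid transporter Mfsd2a was higher in all 6 by 0.33 ± 0.11. Without the mice numbered 1, 4 endothelial genes were lower and 1 higher at p under 0.05. Of the mural cell markers Higd1b was lower, as above, and Vtn higher by 0.33 ± 0.11 (p of 0.0867 without the mice numbered 1), with a list median of -0.03.

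Meningeal fibroblast markers had 1 of 14 above 0, a median of -0.18 and summed signals of 1212 to 2125 (median 1688) on S arrays and 1335 to 3420 (median 1641) on B arrays. All genes in the band of their median log2 signal of 6.35 had 52.6% above 0 and a median of 0.01. Igf2, a growth factor made by meninges and choroid plexus, differed by -0.75 ± 0.32 with Ptpn11D61Y mouse 3 at -2.41. Without that mouse 5 of the 14 genes lay above 0 and the median was -0.09. Choroid plexus markers had 0 of 10 above 0 and a median of -0.73. Its size depended on 1 array. Their summed signal was 16338 on the B array of Ptpn11D61Y mouse 3 and 459.8 to 764.9 on the other 11 arrays. Ttr, the transthyretin gene and defining marker of this tissue, read 13.01 on that array and 4.59 to 7.18 elsewhere. Without Ptpn11D61Y mouse 3 the list median was -0.38, 3 of 10 genes lay above 0 and none reached p under 0.05. With all mice Aqp1 (-0.68 ± 0.23) and Folr1 (-0.45 ± 0.19) lay at p under 0.05. Leaving out the mice numbered 1, the p of Igf2, Aqp1 and Folr1 was 0.215, 0.073 and 0.0582.

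Genes known mainly from other tissues lay mostly below 0. Of 174 olfactory receptor genes that met the signal minimum, 15 lay above 0 and 25 (14.4%) were lower and none higher at p under 0.05, with a median of -0.28 at a median log2 signal of 5.58. The band from 5 to 6 had 24.8% of all genes above 0, 5.56% lower and a median of -0.16. In control mouse 1 the list median was -1.12 and in the other 5 mice -0.37 to 0.09. Olfr1454 (-0.95 ± 0.29), Olfr859 (-0.86 ± 0.27) and Olfr1428 (-0.48 ± 0.16) stood beside Olfr1502. Of 36 vomeronasal receptor genes 29 lay below 0, with 8 (22.2%) lower and 1 higher at p under 0.05 and a median of -0.32 at a median log2 signal of 5.75, including Vmn2r35 (-0.60 ± 0.19), Vmn1r75 (-0.58 ± 0.18) and Vmn1r213 (-0.54 ± 0.18). Their median signal lay in the same band.

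Liver genes (1 of 12 above 0, median -0.30), muscle genes (3 of 20, -0.29) and photoreceptor genes (1 of 13, -0.28) had the same sign, for example Alb (-0.48 ± 0.19), Myl2 (-0.48 ± 0.17), Tnnt2 (-0.41 ± 0.15) and Tnni2 (-0.33 ± 0.14). Genes between log2 signals of 5 and 6 as a whole had a median of -0.16. Without the mice numbered 1 the medians of olfactory receptor, liver, muscle and photoreceptor genes were -0.07, -0.05, -0.02 and -0.06, and the p of Alb, Myl2, Tnni2 and Olfr1428 was 0.0895, 0.078, 0.221 and 0.0752.

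Of 173 microRNA genes, read on this array through probes for their precursors, 139 lay below 0, 23 (13.3%) were lower and 3 higher at p under 0.05, and the median was -0.20 at a median log2 signal of 6.01. That signal lies at the edge of the band from 6 to 7, where 52.6% of all genes lay above 0 and 5.65% were lower. In the band from 5 to 6 these shares were 24.8% and 5.56%. Mir504 read 5.36 to 6.72 (median 6.51) on S arrays and 6.60 to 7.27 (median 6.95) on B arrays. It was lower in all 6 mice by -0.58 ± 0.15 (limma, adjusted p = 0.512), most in Ptpn11D61Y mouse 3 at -1.24. Mir9-1, a precursor of the neural microRNA miR-9, was lower in all 6 mice by -0.36 ± 0.10, and Mir30d by -0.50 ± 0.14. Mature sequences are shown for Mir504 and Mir9-1, both named through RefSeq on build GRCm38.p6, since these products are what the genes are known by. Capitals mark the seed, bases 2 to 8, and no seed was shared among mmu-miR-504-5p (chrX:59097705-59097726, minus strand), mmu-miR-9-5p (chr3:88215613-88215635, plus strand) and mmu-miR-9-3p (chr3:88215652-88215673, plus strand):
mmu-miR-504-5p: aGACCCUGgucugcacucuauc
mmu-miR-9-5p: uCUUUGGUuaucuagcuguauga
mmu-miR-9-3p: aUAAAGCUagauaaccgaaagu

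Without the mice numbered 1 Mir504, Mir9-1, Mir30d and Mir669g differed by -0.62, -0.37, -0.36 and -0.64, while the median of all 173 microRNA genes was -0.08. After centring 12 microRNA genes and 12 olfactory receptor genes were lower at p under 0.05, with medians of -0.06 and -0.15. The array does not measure mature microRNAs.

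Pooling averaged over both genotypes, and the difference between the responses was tested on the 6 within-mouse differences. At an unadjusted p under 0.05, 78 genes (0.492%) differed between Ptpn11D61Y and control responses, and none passed the adjusted threshold (limma, smallest adjusted p = 1). Over all clusters the share was 1.78%. For Rit2 the means were 0.82 in Ptpn11D61Y and 0.88 in control mice, for Egr2 0.77 and 0.70, for Jun 0.70 and 0.48, and for Fgfr4 -0.70 and -0.84. Of the early factors, early effectors and late activity genes, 1 each differed between genotypes at an unadjusted p under 0.05. These were Srf (-0.20 and 0.31), Errfi1 (-0.04 and 0.43) and Penk (-0.37 and 0.29). Bdnf, at -0.04 and 0.38, did not. In the same order of genotypes, list medians were 0.13 and 0.34 for early factors. They were -0.0023 and 0.20 for early effectors and 0.12 and 0.13 for late activity genes. The 24 leading genes were chosen for lying on the same side in all 6 mice, which selects against a difference between genotypes. None of them had an interaction p under 0.05. With 3 mice per genotype this does not show that the responses were equal. Etv1, at 0.61 in each genotype, had equal means, and Pcsk1 averaged 0.61 in Ptpn11D61Y and 0.19 in control mice without reaching an unadjusted p under 0.05 for the difference.

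Ptpn11, which carries the D61Y exchange in the mutant mice, read 8.32 to 8.76 (median 8.69) on S arrays and 8.37 to 8.88 (median 8.68) on B arrays. It was higher in 3 mice and lower in 3, with a mean of -0.05 ± 0.09 (limma, adjusted p = 0.82). Expression probes do not read the exchange, so this level checks no genotype. Of the genes that the study also measured by quantitative PCR, Arc, Bdnf, Pdgfra and Erbb3 met the signal minimum. Arc and Bdnf had served there to choose the time point of the arrays. In S minus B, Pdgfra, the receptor of oligodendrocyte precursors, differed by -0.03 ± 0.12 and Erbb3, a neuregulin receptor, by -0.17 ± 0.17, neither at p under 0.05. Erbb3, without the mice numbered 1, differed by -0.42 with an unadjusted p of 0.0141 in limma, and Pdgfra by -0.19. In a list of FGF receptors, co-receptors and the adaptors Frs2 and Frs3, 7 genes were measured. Of these 2 lay above 0 with a median of -0.09, and Fgfr4 was the only one at p under 0.05.

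A further 32 gene lists were counted and are not described singly. Their medians ran from -0.25 for keratin genes to 0.20 for Efna and Efnb ephrins, and 20 of the 32 lay above 0.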

How the data were processed

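RNA from stimulated (S) and basal (B) hippocampal slices of 6 mice was hybridised to the Affymetrix Mouse Gene ST array. The deposited values are intensity signals that the authors summarised with PLIER and quantile normalised, per the labels' processing notes and the methods. The values are linear, as their range up to 22547.1 shows, although the text speaks of log2. Gene symbols came from GEO's platform annotation, which gave 1 symbol to 23521 of 41345 transcript clusters, several to 1820 and none to 16004.

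Signals were floored at 1 and put on the log2 scale in R 4.3.3. limma 3.58.1 was fitted to all clusters with the mouse as a block (5 residual degrees of freedom, eBayes with trend, Benjamini-Hochberg adjustment), and the response of Ptpn11D61Y mice minus that of controls was fitted to the 6 differences. Both arrays of a mouse share its number and genotype in the labels. After removal of group means they correlated at 0.79, 0.70 and 0.41 in Ptpn11D61Y and 0.28, 0.02 and 0.14 in control mice. The sign-flip test was exact and two-sided. The script was tested on simulated data. Mice are the replicates, and the number of arrays limits the precision.

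Genes were named by rule: the 12 smallest p among genes higher by at least 1.5-fold in the mean and in the same direction in every mouse, and likewise lower, activity genes at p under 0.05, up to 4 genes of each other list by moderated t, Bdnf, Arc, Ptpn11 and genes the study checked by quantitative PCR. Fos, Egr1, Npas4, Crem and Ttr were added with their values known, as was the choice of microRNA sequences. The members and lists were chosen with earlier results of these data known. Alternatives were other treatments of the mouse in the model, the methods' ANOVA filter, other scalings, offsets and signal minimums, and leaving out mice.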

Additional observations from a re-analysis of the deposited data

Results flagged for a closer look

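In 19 of 159 genes and lists screened, 1 mouse lay far from the other 5 in S minus B by Dixon's criterion. Chance alone marks about 1 in 20 such groups. Values are log2 differences, and no explanation was tested.

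Control mouse 1 stood apart in 12 of them. Its difference was 1.44 for Etv5, where the other 5 mice lay at 0.14 to 0.41, 1.41 for Mrpl22 (others 0.40 to 0.59), 0.77 for Mrpl51 (0.23 to 0.39) and 0.76 for Rgs4 (0.29 to 0.44). It was 0.41 for Il1a, where the others lay at -0.69 to -0.45, and 0.26 for the median of inflammatory cytokines and chemokines (-0.27 to -0.09). It was -2.40 for Olfr859 (-0.99 to -0.27), -2.03 for Prl2c1 (-0.77 to -0.30), -1.55 for Kcna5 (-0.70 to -0.25), -1.51 for Vmn1r8 (-0.70 to -0.29), -1.31 for Vmn1r75 (-0.60 to -0.26) and -1.30 for the median of vomeronasal receptor genes (-0.32 to 0.01).

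Ptpn11D61Y mouse 1 stood apart for Il1b at -2.28 (others -0.59 to 0.04), for Hlf at 0.000254 (0.20 to 0.25), for the median of FGF receptor, co-receptor and adaptor genes at -0.41 (-0.17 to -0.04) and for that of respiratory chain genes at -0.18 (0.14 to 0.29). Ptpn11D61Y mouse 3 stood apart for Syn1 at 1.10 (0.02 to 0.39) and for the choroid plexus median at -3.44 (-0.73 to 0.07), and control mouse 2 for Cblif at -0.10 (-0.83 to -0.57).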

How the results depend on the processing

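No alternative gave a gene past an adjusted p of 0.05, while unadjusted p under 0.05 held 445 to 2779 genes. With no replicate block, that is with the pairing ignored, 445 genes lay at p under 0.05 and 82 passed the 1.5-fold filter, 11 of them higher. With the mouse as a random block these were 1021 at p under 0.05 and 24 higher. The methods' one-way ANOVA with Tukey averages gave 769 at p under 0.05 and 34 past the filter, 6 higher and 28 lower, and eBayes without trend 1225 at p under 0.05. Array weights left 57 past the filter, 27 lower. Centring gave 180 higher and 29 lower, repeated quantile normalisation 88 and 62, and an offset of 16 gave 39, 12 higher and 27 lower. A mean of at least 6 left 71, 36 lower, and no minimum gave 319, 265 lower. Without both mice numbered 1 there were 82, 66 higher and 16 lower. Leaving out 1 mouse in turn gave 45 (without control mouse 1) to 328 (without control mouse 2) past the filter, 24 to 84 higher and 21 to 259 lower, and 1360 to 2454 at p under 0.05. The causes were not tested.

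The median of Kv1 and Kv3 genes was 0.31 under the ANOVA setting and 0.23 after centring, that of microglia markers 0.15 and that of circadian genes 0.27 after centring. Signs turned under the ANOVA setting for Arc (0.0911), Igf2 (0.0111), Ptpn11 (0.0219) and Trib1 (-0.0303), and after centring for Arc (0.0408), Pdgfra (0.10) and Ptpn11 (0.0818). Leaving out 1 mouse gave -0.132 (without control mouse 1) to 0.0462 (without Ptpn11D61Y mouse 3) for Pdgfra, with 0.00865 without control mouse 2 and 0.00912 without Ptpn11D61Y mouse 2, and -0.0881 to 0.0212 (without control mouse 2) for Ptpn11. Of 118 named genes at p under 0.05, 67 stayed under it whichever mouse was left out.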
